A study of Mus musculus with 56 samples.

Results

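The comparison described here is that of medullary thymic epithelial cells (mTECs) taken 2 days before parturition (D-2) with mTECs of age-matched non-pregnant females (NPC). Each group held 3 samples, so that 6 of the 56 RNA-seq samples of the series entered it, each extracted from a separate mouse. The remaining samples were mTECs at later time points, from the day of birth (D0) onwards, and cortical thymic epithelial cells (cTECs) over the same course. All females were B6.SJL (CD45.1), a C57BL/6 congenic strain, and those of the D-2 and postpartum groups had been mated with BALB/cJ males. Pups were removed at birth, which touches the postpartum groups only, and the ages of the females were not given in the sources used here. Thymi were digested enzymatically and enriched for EpCAM, an epithelial surface protein, before sorting. The mTECs were the EpCAM+ CD45- cells that bound the lectin UEA1, and the cTECs were those that did not, so each sample is a mixture of the mTEC subsets within that gate. Genes were kept where their mean over the 28 mTEC samples reached 0.5 FPKM (fragment counts scaled to transcript length and library size), which left 17743 of 50600 genes.

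mTECs line the inner zone of the thymus, where they display proteins of other organs to developing T cells so that self-reactive clones are removed or become regulatory T cells. The nuclear proteins AIRE and FEZF2 drive much of this ectopic expression, and MHC class II with the costimulatory molecules CD80, CD86 and CD40 allows its presentation. Several subsets are recognised, among them CCL21+ cells that attract positively selected thymocytes, dividing precursors of Aire+ cells, and post-Aire cells that resemble keratinocytes, tuft cells, microfold cells and other peripheral types. The thymus shrinks during pregnancy, when glucocorticoids, progesterone, estrogens and prolactin are high.

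In late gestation, transcripts of *Acta2*, *Myl9* and *Tagln*, genes typical of smooth-muscle-like contractile cells, and of the replication genes *Mcm3*, *Mcm5* and *Dut* fell in mTECs. Other actin-associated genes, chosen after their values were seen, were not called and did not share a direction. Log2 fold changes were below 0 for *Tpm2*, *Tpm1*, *Actg1*, *Myl6*, *Vcl* and *Actb* (-0.96 to -0.24). They were above 0 for *Cald1*, *Actn1*, *Srf* and *Cnn1* (0.03 to 1.31). Signs depended on the setting for *Actb*, *Actn1*, *Srf* and *Cnn1*. Single transcripts that rose included those of the transcription factors *Sox4*, *Maf* and *Klf5*, the chromatin remodeller *Baz1a*, the splicing regulator *Rbm25*, the glucocorticoid target *Klf9*, the cytokine signalling inhibitor *Socs2* and the acute-phase protein *Serpina3n*. *Aire*, *Fezf2*, *Cd80* and the MHC class II genes were not called. The threshold was a change of at least 2-fold with a p of at most 0.01 after Benjamini-Hochberg adjustment in limma-voom, fitted over all 28 mTEC samples. At it, 92 genes were called higher at D-2 (0.519% of the genes tested) and 9 were called lower (0.0507%), 101 in all (0.569%). At an adjusted p of 0.05 and the same fold, 262 genes were called higher (1.48%) and 44 lower (0.248%).

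Of the 92 genes called higher, 83 were protein coding and in 85 every D-2 sample lay above every NPC sample, a pattern found in 6.28% of all genes tested. Their median level went from 21.9 FPKM in NPC to 60.9 FPKM at D-2. All 9 genes called lower had D-2 samples below the NPC samples (8.16% of all genes), and their median level went from 53.9 to 22 FPKM. Log2 fold changes of the protein-coding genes called higher ran from 1.01 to 2.40, and those of the genes called lower spanned 1.07 to 2.15 in size. Over all genes tested the median log2 fold change was 0.12. Of the genes called higher, 4 predicted genes were listed at 0 in every NPC sample and are given no fold.

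**Figure D1:**
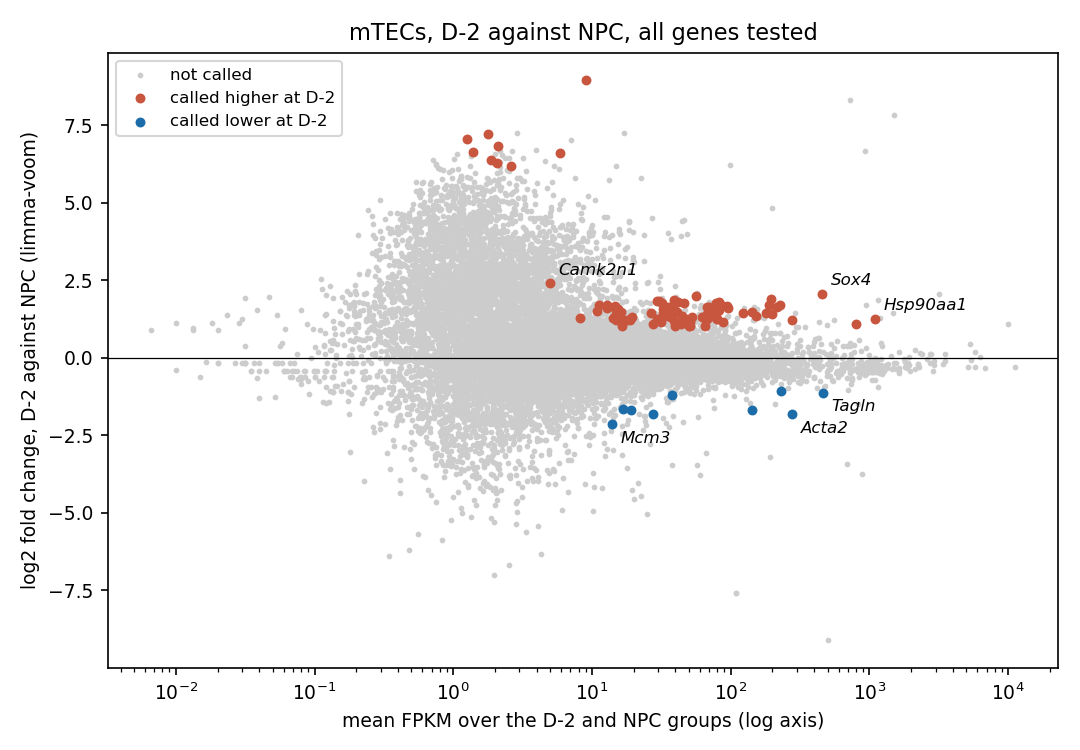
Log2 fold change of D-2 against NPC in mTECs (limma-voom) against the mean FPKM over both groups (log axis), 1 point per gene tested, with genes called higher in red and genes called lower in blue. The 92 genes called higher outnumber the 9 called lower, and *Camk2n1*, *Sox4*, *Hsp90aa1*, *Acta2*, *Tagln* and *Mcm3* are labelled.

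The number of calls depended strongly on how the spread was estimated. DESeq2 called 134 genes (115 higher, 19 lower) and edgeR's quasi-likelihood test 20 (18 higher, 2 lower). With the 6 samples alone, which leave few degrees of freedom, limma-voom called none, although 2267 genes had an unadjusted p under 0.05. Leaving out NPC replicate 3 raised the number to 273, and leaving out NPC replicate 2 lowered it to 2. It was 8 without D-2 replicate 1, 50 without D-2 replicate 2, 57 without D-2 replicate 3 and 73 without NPC replicate 1. Every fold change and p below comes from the limma-voom fit over 28 samples unless another is named.

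The libraries differed, and some of the differences ran along with pregnancy. They held 9991569 to 48195568 estimated counts at D-2 and 10882687 to 31668145 in NPC, and NPC replicate 3 correlated better with the D-2 libraries (0.875 to 0.889, across genes) than with the other NPC libraries (0.801 to 0.816), which correlated at 0.753 with each other. Genes at 0.5 FPKM or more numbered 17446, 17038 and 17001 at D-2 and 15019, 14487 and 18087 in NPC. The part of this detection in the results was not tested. Transcripts of the GENCODE biotype TEC, a class that still awaits experimental evidence and has nothing to do with thymic epithelium, took 0.102% to 0.193% of counts at D-2 and 0.0707% to 0.0876% in NPC, without overlap. Their median log2 fold change was 3.01, against 1.01 for lincRNAs and 0.09 for protein-coding genes. *Malat1*, an abundant nuclear lincRNA, stood at 849 to 3588 FPKM at D-2 and 254 to 374 FPKM in NPC (log2 fold change 1.86, adjusted p = 0.011), whereas *Neat1*, another nuclear lincRNA, overlapped (20.8 to 31.8 against 16.7 to 108 FPKM). With either the share of those transcripts or *Malat1* as a covariate, no gene was called in limma-voom, and 2110 and 2451 genes respectively had an unadjusted p under 0.05. In these fits the median log2 fold change of the genes called higher was 1.23 under either, against 1.47 without a covariate. For the genes called lower it was -1.37 with the transcript share and -1.20 with *Malat1*, against -1.69. Since these covariates differ between the groups, they cannot be told apart from pregnancy.

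*Aire* separated the sorted populations. It was at 50.1 to 317 FPKM in the 6 mTEC samples and at 1.15 to 16.5 FPKM in the cTECs of the same groups, while *Psmb11*, a cTEC proteasome subunit, was at 7.77 to 26.6 FPKM in NPC mTECs and 73.8 to 231 FPKM in NPC cTECs. At D-2 *Psmb11* did not separate them, at 5.69 to 27.6 FPKM in mTECs and 15.8 to 36.2 FPKM in cTECs, and the summed cTEC genes overlapped as well (1121 to 2082 against 1851 to 3324 FPKM). *Ptprc*, which encodes CD45, reached at most 2.04 FPKM. Summed levels of the gene lists for other cell types overlapped between D-2 and NPC for thymocytes (37.7 to 64.5 against 51.8 to 72 FPKM), B cells (27.9 to 33.5 against 18.5 to 34.3), fibroblasts (160.0 to 209 against 165 to 232), endothelium (8.55 to 18 against 11.8 to 18.5) and erythroid cells (16.4 to 25.5 against 22.7 to 41.6). They were lower at D-2, at the margin of overlap, for macrophages and dendritic cells (113 to 169 against 167 to 264 FPKM) and, without overlap, for cTEC genes (1121 to 2082 against 2260 to 2511 FPKM). No member of these 7 lists was called, and the part of other cells in the results was not tested.

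*Acta2*, the smooth muscle actin gene on chromosome 19 (34241090 to 34255590 in GRCm38), was the lower gene with the smallest p. It stood at 420.3, 493 and 404 FPKM in NPC and at 98.3, 114 and 142 FPKM at D-2, or 439 ± 47 against 118 ± 22.2 (mean ± SD, n = 3). The groups lay far apart, and the log2 fold change was -1.83 (SE 0.23, adjusted p = 0.0011). *Myl9*, a regulatory myosin light chain that serves contraction, stood at 192, 324 and 132 FPKM in NPC and 50.9, 92.9 and 64.5 FPKM at D-2. Every D-2 sample was again below every NPC sample, at a log2 fold change of -1.70 (SE 0.27, adjusted p = 0.0024). *Tagln*, whose product transgelin binds actin filaments, stood at 666, 742 and 583 FPKM in NPC and 239.8, 221 and 316 FPKM at D-2. Its log2 fold change was -1.13 (SE 0.22, adjusted p = 0.0096), again without overlap. In these bulk samples, fewer cells expressing such genes and less RNA per cell cannot be told apart.

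*S100a6*, a calcium-binding protein gene, was at 313 ± 26.8 FPKM in NPC and 151 ± 12.3 FPKM at D-2 (log2 fold change -1.07, adjusted p = 0.005). Several abundant cytoskeletal genes were below the fold threshold although their p passed it. *Tmsb4x*, for the actin-sequestering thymosin beta, had a log2 fold change of -0.93 (adjusted p = 0.0062). *Flna*, for the actin cross-linker filamin, had -0.80 (adjusted p = 0.0046), and *Tuba1b*, an alpha-tubulin gene, had -0.79 (adjusted p = 0.0062). The calmodulin gene *Calm3* (-0.94, adjusted p = 0.008) and the fatty-acid-binding protein gene *Fabp5* (-0.91, adjusted p = 0.0089) were placed likewise. For *Myh10*, a non-muscle myosin gene, the log2 fold change was -1.90 with an adjusted p of 0.012. In each of these 6 genes all D-2 samples were below all NPC samples, which was a condition for naming them and is no result (8.16% of all genes met it).

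Other actin-associated genes, chosen after their values were seen, were not called, and they did not share a direction, with signs that depended on the setting for *Actb*, *Actn1*, *Cnn1* and *Srf*. Tropomyosin *Tpm2* went from 624 ± 158 to 310.4 ± 28.3 FPKM (log2 fold change -0.96, adjusted p = 0.015), and *Tpm1* had -0.49 (adjusted p = 0.077). Log2 fold changes were -0.52 for the cytoplasmic actin gene *Actg1* (adjusted p = 0.028), -0.65 for the myosin light chain gene *Myl6* (adjusted p = 0.059), -0.61 for vinculin, *Vcl* (adjusted p = 0.17) and -0.24 for *Actb* (adjusted p = 0.60). Caldesmon, *Cald1* (0.39, adjusted p = 0.25) and alpha-actinin, *Actn1* (0.27, adjusted p = 0.59) had values above 0 with overlapping groups. *Srf*, whose product is a transcription factor of many actin genes, had 0.03 (adjusted p = 0.96), and the smooth muscle calponin gene *Cnn1* had 1.31 (SE 1.94, adjusted p = 0.78), with 5.88, 0 and 7.9 FPKM in NPC and 6.34, 6.26 and 0.25 FPKM at D-2.

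**Figure D2:**
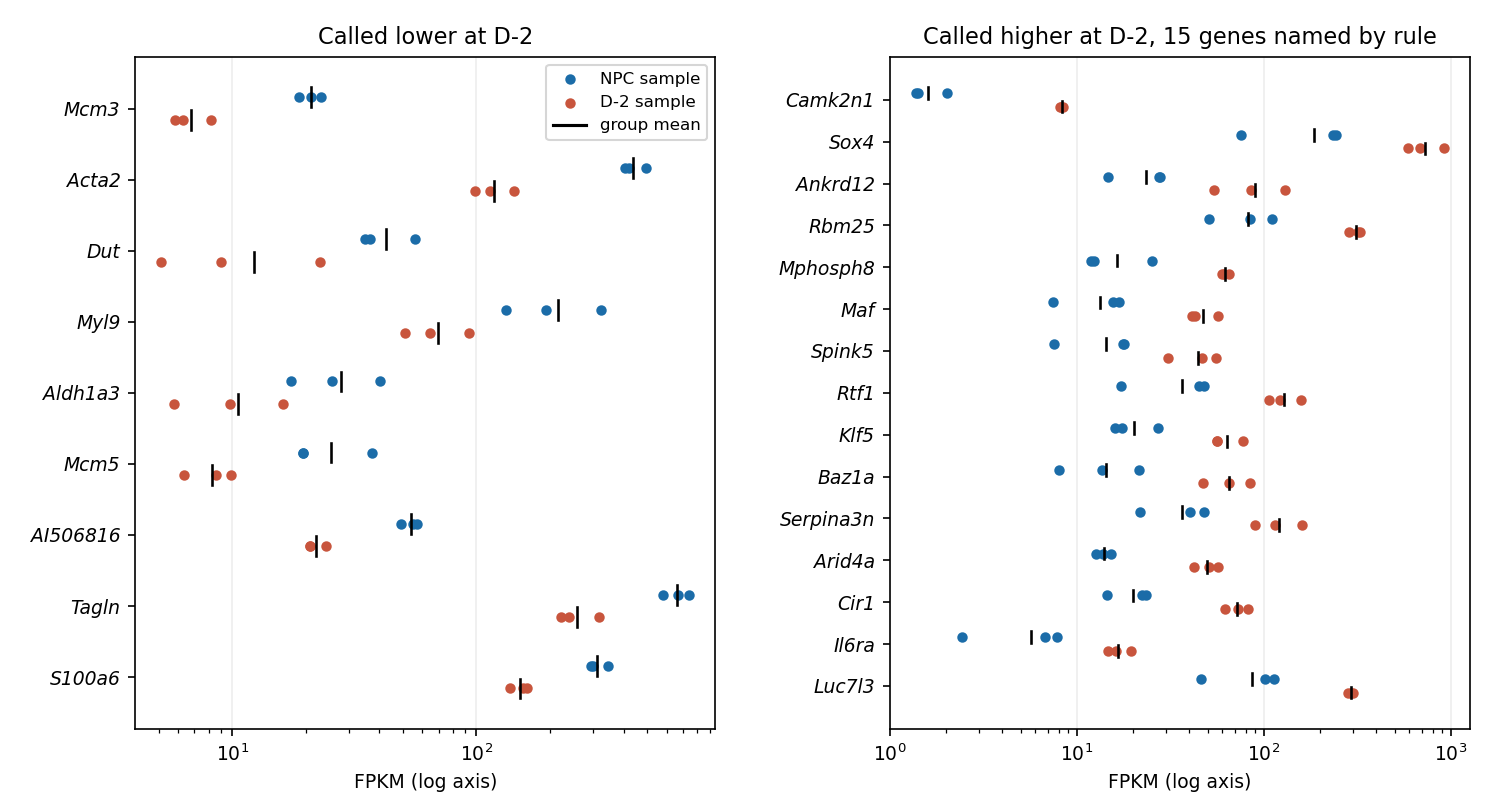
FPKM (log axis) in each NPC sample (blue) and each D-2 sample (red) of mTECs for the 9 genes called lower and the 15 genes called higher that were named by size, with the group mean as a black bar. The 15 were the largest changes among called genes with names, at least 5 FPKM and groups apart, so their separation was set by the choice, and *Acta2* lies at 98.3 to 142 FPKM against 404 to 493 FPKM.

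The genes for 2 subunits of the MCM helicase, which unwinds DNA at replication forks, fell. *Mcm3* stood at 18.8, 23.2 and 21.1 FPKM in NPC and 5.85, 8.22 and 6.26 FPKM at D-2. The groups did not overlap and the log2 fold change was -2.15 (SE 0.36, adjusted p = 0.0038). *Mcm5* stood at 19.5, 37.2 and 19.5 FPKM in NPC and 8.58, 9.92 and 6.37 FPKM at D-2, also without overlap (log2 fold change -1.64, SE 0.30, adjusted p = 0.0061). *Dut*, for the dUTPase that keeps uracil out of DNA, went from 42.6 ± 11.6 to 12.3 ± 9.27 FPKM (log2 fold change -1.81, adjusted p = 0.0096).

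*Mcm3* and *Mcm5* belong to a list of 28 mitosis and DNA replication genes, all tested, of which these 2 were called and 26 were not. Of all genes, 0.0507% were called lower. The median log2 fold change of the list was -1.61 against 0.12 for all genes, 27 members had a value below 0 (42.6% of all genes did), and in 16 every D-2 sample was below every NPC sample (8.16% of all genes). At an adjusted p of 0.05, 5 members were called lower, which added *Mki67*, a marker of cycling cells (-1.76), *Mcm2* (-1.27) and the kinetochore motor gene *Cenpe* (-3.01). At that threshold 0.248% of all genes were called lower. *Top2a*, for the topoisomerase of mitotic chromosomes, stood at 36.4, 28.9 and 52.8 FPKM in NPC and 14, 20.8 and 4.41 FPKM at D-2 (adjusted p = 0.12). *Pcna*, the replication clamp gene, overlapped (log2 fold change -0.34, adjusted p = 0.50). The summed level of the list was 439, 466 and 588 FPKM in NPC and 236, 313 and 178 FPKM at D-2. Without D-2 replicate 3, which had the lowest sum, the median of the list was -0.65, and *Mcm3* (log2 fold change -1.42, adjusted p = 0.48) and *Mcm5* (-1.22, adjusted p = 0.44) were not called.

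RefSeq promoter windows of 7 of the 9 genes called lower, all but *Tagln* and *Aldh1a3*, were searched for 2 motifs. The windows ran from 250 bases before to 50 after the start site (GRCm38.p6). The E2F-type motif of replication genes was searched as TTTCCCGC, TTTCGCGC, TTTGGCGC or TTTGCCGC on both strands, and 744 of 32851 windows (2.26%) held it. The CArG box, the site of serum response factor, was searched as CCWWWWWWGG, where W is A or T. It was found in 535 windows (1.63%). The 3 windows with a match are printed because they belong to genes that fell, each 5' to 3' on the strand of its gene with the matched bases in capitals. *Mcm3* lies at chr1:20820263-20820562 on the minus strand and has E2F-type matches starting at bases 19 and 38, counted from 0 at the start site. *Mcm5* lies at chr8:75109259-75109558 on the plus strand and has overlapping matches starting at -153 and -149. *Myl9* lies at chr2:156775214-156775513 on the plus strand and has a CArG match starting at -161.
Mcm3: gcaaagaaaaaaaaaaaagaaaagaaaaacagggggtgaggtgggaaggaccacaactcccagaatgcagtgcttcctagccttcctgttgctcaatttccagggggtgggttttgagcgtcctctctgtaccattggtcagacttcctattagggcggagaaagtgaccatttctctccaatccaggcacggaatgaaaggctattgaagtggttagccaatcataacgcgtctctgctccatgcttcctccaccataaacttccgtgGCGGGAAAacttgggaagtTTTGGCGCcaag
Mcm5: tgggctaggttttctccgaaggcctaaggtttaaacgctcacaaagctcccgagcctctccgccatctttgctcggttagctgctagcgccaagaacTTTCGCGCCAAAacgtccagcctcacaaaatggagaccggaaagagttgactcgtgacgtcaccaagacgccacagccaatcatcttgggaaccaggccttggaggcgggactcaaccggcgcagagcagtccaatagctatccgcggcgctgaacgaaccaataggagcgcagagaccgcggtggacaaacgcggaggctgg
Myl9: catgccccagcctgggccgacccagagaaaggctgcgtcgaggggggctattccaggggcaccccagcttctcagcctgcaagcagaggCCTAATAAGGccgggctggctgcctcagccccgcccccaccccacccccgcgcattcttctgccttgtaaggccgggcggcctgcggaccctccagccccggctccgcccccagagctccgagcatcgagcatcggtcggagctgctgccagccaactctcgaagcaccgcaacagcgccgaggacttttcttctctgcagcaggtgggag
Neither motif was found in exactly these letters in the windows of *Acta2*, *Dut*, *S100a6* and *AI506816*. The *Acta2* window does hold ccctatatgg and ccttgtttgg, each of which departs from the searched CArG letters at a single base. The search therefore does not show that *Acta2* lacks such a site, and near matches in other windows were not counted. The matches are a description of these windows.

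2 further genes were called lower. *Aldh1a3*, for an enzyme that makes retinoic acid, went from 25.7, 40.3 and 17.4 FPKM in NPC to 16.1, 9.81 and 5.76 FPKM at D-2, with a narrow gap between the groups (log2 fold change -1.69, adjusted p = 0.0059). The processed transcript *AI506816* went from 53.9 ± 4.13 to 22 ± 1.99 FPKM (log2 fold change -1.19, adjusted p = 0.0082).

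The largest increases were named from called genes whose groups did not overlap. *Sox4*, for a factor of progenitor and epithelial cells (chromosome 13, 28948919 to 28953713), stood at 235, 244 and 75.1 FPKM in NPC and 914, 589 and 681 FPKM at D-2. The lowest D-2 sample exceeded the highest NPC sample, and the log2 fold change was 2.06 (SE 0.36, adjusted p = 0.0049). Over the alternative settings the log2 fold change of *Sox4* ran from 1.36 to 2.42 and its adjusted p from 0.0014 to 0.98. *Maf*, for a basic leucine zipper factor, went from 7.43 to 16.9 FPKM in NPC to 41.4 to 57.2 FPKM at D-2 (log2 fold change 1.84, adjusted p = 0.0019). *Klf5*, for a factor of proliferating epithelia, went from 15.9 to 27.1 FPKM to 56.1 to 77.2 FPKM (1.78, adjusted p = 0.0044). Chosen after their values were seen, *Sox9* (85.5, 79.2 and 53.4 against 281, 192 and 166 FPKM) and *Klf4*, a factor of epithelial differentiation (105, 67.4 and 188 against 335, 326 and 349 FPKM), had log2 fold changes of 1.48 (adjusted p = 0.0019) and 1.69 (adjusted p = 0.0064). Neither overlapped between groups.

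By the rule for the largest changes, *Ankrd12* (log2 fold change 1.98), the heterochromatin protein gene *Mphosph8* (1.85), *Rtf1*, for an elongation factor subunit (1.78), the chromatin remodeller gene *Baz1a* (1.77), *Arid4a*, for a subunit of a histone deacetylase complex (1.75), and the corepressor gene *Cir1* (1.75) were called higher, with adjusted p from 0.0011 to 0.0048. Among them, *Baz1a* went from 8, 13.6 and 21.6 FPKM in NPC to 84.2, 64.8 and 47.2 FPKM at D-2. Chosen after their values were seen, the chromatin genes *Arid4b* (1.65), *Chd7* (1.55), *Kdm5a* (1.51), *Kmt2e* (1.28) and *Crebbp* (1.21) were also called.

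*Rbm25*, a splicing regulator gene, stood at 111, 84.7 and 50.7 FPKM in NPC and 319, 327 and 286 FPKM at D-2 (log2 fold change 1.89, SE 0.30, adjusted p = 0.0027). *Luc7l3*, for a protein related to a U1 snRNP component, stood at 101, 113 and 46 FPKM in NPC and 282, 294 and 299.6 FPKM at D-2 (1.70, SE 0.25, adjusted p = 0.0019). In both genes the D-2 samples were at more alike levels than the NPC samples. The splicing factor genes *Son* (1.63), *Srsf11* (1.42) and *Rbm39* (1.21), the genes of nonsense-mediated decay *Upf3b* (1.59) and *Upf2* (1.41) and the microRNA silencing gene *Tnrc6a* (1.67) were called as well, and were chosen after their values were seen. No list of chromatin or splicing genes had been set, so these groups carry no count.

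RSEM's estimate of the transcript length in use also differed between groups for some of these genes. The estimate was shorter in every D-2 sample than in every NPC sample for 13 of the 92 genes called higher (14.1%) against 2.89% of all genes, and longer for 6 (6.52%) against 3.87%. For *Klf13*, a Krüppel-like factor gene, the mean length was 5707 bases in NPC and 1851 bases at D-2, so that its FPKM went from 12.1 ± 1.62 to 85.9 ± 8.36 while its count-based log2 fold change was 1.17 (adjusted p = 0.0021). For *Ankrd17* the lengths were 6531 and 3015 bases (log2 fold change 1.02, adjusted p = 0.0021), and for *Crebbp* they were 3461 and 1727 bases. The FPKM ratio of these genes therefore exceeds their change in counts. The genes called higher were also longer than most, with a median of 3388 bases against 1979 for all genes.

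*Camk2n1*, for an inhibitor of calcium/calmodulin kinase, had the largest change of the called genes named by size, from 2.03, 1.38 and 1.41 FPKM to 8.13, 8.26 and 8.47 FPKM (log2 fold change 2.40, SE 0.47, adjusted p = 0.0097). *Il6ra*, the interleukin-6 receptor gene, went from 6.79, 2.42 and 7.8 FPKM to 16.1, 14.6 and 19.4 FPKM (1.70, SE 0.33, adjusted p = 0.0093). Both genes were expressed at low level in NPC, and their groups did not overlap. Chosen after their values were seen, *Hsp90aa1*, an abundant chaperone gene (615, 493 and 501 against 2172, 1243 and 1574 FPKM), *Igfbp5*, for a binding protein of insulin-like growth factors (562, 579 and 406 against 1325, 868 and 1089 FPKM), and the activin-binding protein gene *Fst* had log2 fold changes of 1.26, 1.08 and 1.65. The survival gene *Bcl2*, chosen likewise, was called at 8.65 ± 1.18 FPKM in NPC and 24.7 ± 2.29 FPKM at D-2 (adjusted p = 0.0049). *Igfbp3*, of the same family as *Igfbp5*, had 0.48 (adjusted p = 0.36).

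Lists of hormone-responsive genes contained 2 of the calls. Of 18 glucocorticoid-responsive genes, *Klf9* was called and 17 were not. The list's median log2 fold change was 0.54, 16 members had a value above 0 (57.4% of all genes did), and in 5 all D-2 samples were above all NPC samples (6.28% of all genes). Of all genes 0.519% were called higher. *Klf9*, for a repressor that is a direct target of the glucocorticoid receptor and also responds to progesterone and thyroid hormone (chromosome 19, 23141226 to 23168134), stood at 45.9, 37.3 and 35.2 FPKM in NPC and 175, 111 and 112 FPKM at D-2. Its groups were well separated (log2 fold change 1.69, SE 0.23, adjusted p = 0.0017). *Nfkbia*, the inhibitor of NF-kB, stood at 1025, 691 and 649 FPKM in NPC and 2774, 1928 and 1767 FPKM at D-2 and just missed the p threshold (1.44, adjusted p = 0.012). *Angptl4* (2.23, adjusted p = 0.011), *Pdk4* (1.96, adjusted p = 0.038) and *Zbtb16* (4.03, adjusted p = 0.036) passed at 0.05. The standard glucocorticoid targets *Fkbp5* (-0.04), *Tsc22d3* (0.45) and *Dusp1* (0.59) were not called.

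Of 11 prolactin and STAT5 target genes, *Socs2* was called (0.519% of all genes were called higher). It encodes a feedback inhibitor of growth hormone and prolactin signalling and stood at 59.3, 39 and 30.4 FPKM in NPC and 123, 104 and 84 FPKM at D-2. The groups did not overlap (log2 fold change 1.54, SE 0.27, adjusted p = 0.0046). *Cish* (0.04) and *Socs3* (0.23), feedback inhibitors of the same family, and the prolactin receptor gene *Prlr* (1.13, adjusted p = 0.21) were not called, and the list's median was 0.26, or -0.01 to 0.73 over the alternative settings. Of 16 progesterone- and estrogen-responsive genes none was called (median 0.53, or 0.01 to 0.74 over the alternative settings). A value above 0 was found for 11 of them, against 57.4% of all genes. *Wnt4*, a progesterone target and thymopoietic ligand gene, stood at 145, 111 and 31.7 FPKM in NPC and 347, 142 and 199.6 FPKM at D-2 (1.31, adjusted p = 0.15), with overlap in a single pair of samples.

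None of 12 hormone receptor genes was called (median 0.47), and 11 had a value above 0, against 57.4% of all genes. *Pgr*, the progesterone receptor gene, stood at 0.87, 2.27 and 2.65 FPKM in NPC and 4.33, 5.12 and 5.48 FPKM at D-2. Its groups did not overlap and its log2 fold change was 1.87 (SE 0.46), but its adjusted p of 0.038 did not pass. The estrogen receptor gene *Esr1* had -0.73 (adjusted p = 0.24), and the glucocorticoid receptor gene *Nr3c1* had 0.22 (adjusted p = 0.64).

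*Serpina3n*, for a secreted inhibitor of proteases and an acute-phase protein (chromosome 12, 104406729 to 104414329), stood at 47.9, 40.3 and 21.7 FPKM in NPC and 114, 89.6 and 159.5 FPKM at D-2 (log2 fold change 1.75, SE 0.31, adjusted p = 0.0053). It was the only call of 16 acute-phase and innate defence genes (median 0.26), where 0.519% of all genes were called higher. *Lcn2*, which encodes an iron-withholding defence protein, had 1.32 (adjusted p = 0.011), and the complement gene *C3* had -0.05. Of 19 PPAR and fatty acid genes (median -0.01), none was called, and *Angptl4*, *Pdk4* and the elongase gene *Elovl6* (1.36, adjusted p = 0.013) passed at 0.05. Cholesterol biosynthesis genes (19, none called) had a median of -0.54, with 16 below 0 (42.6% of all genes). In 5 all D-2 samples were below all NPC samples (8.16% of all genes), among them *Srebf2*, the master regulator (-0.50, adjusted p = 0.12).

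**Figure D3:**
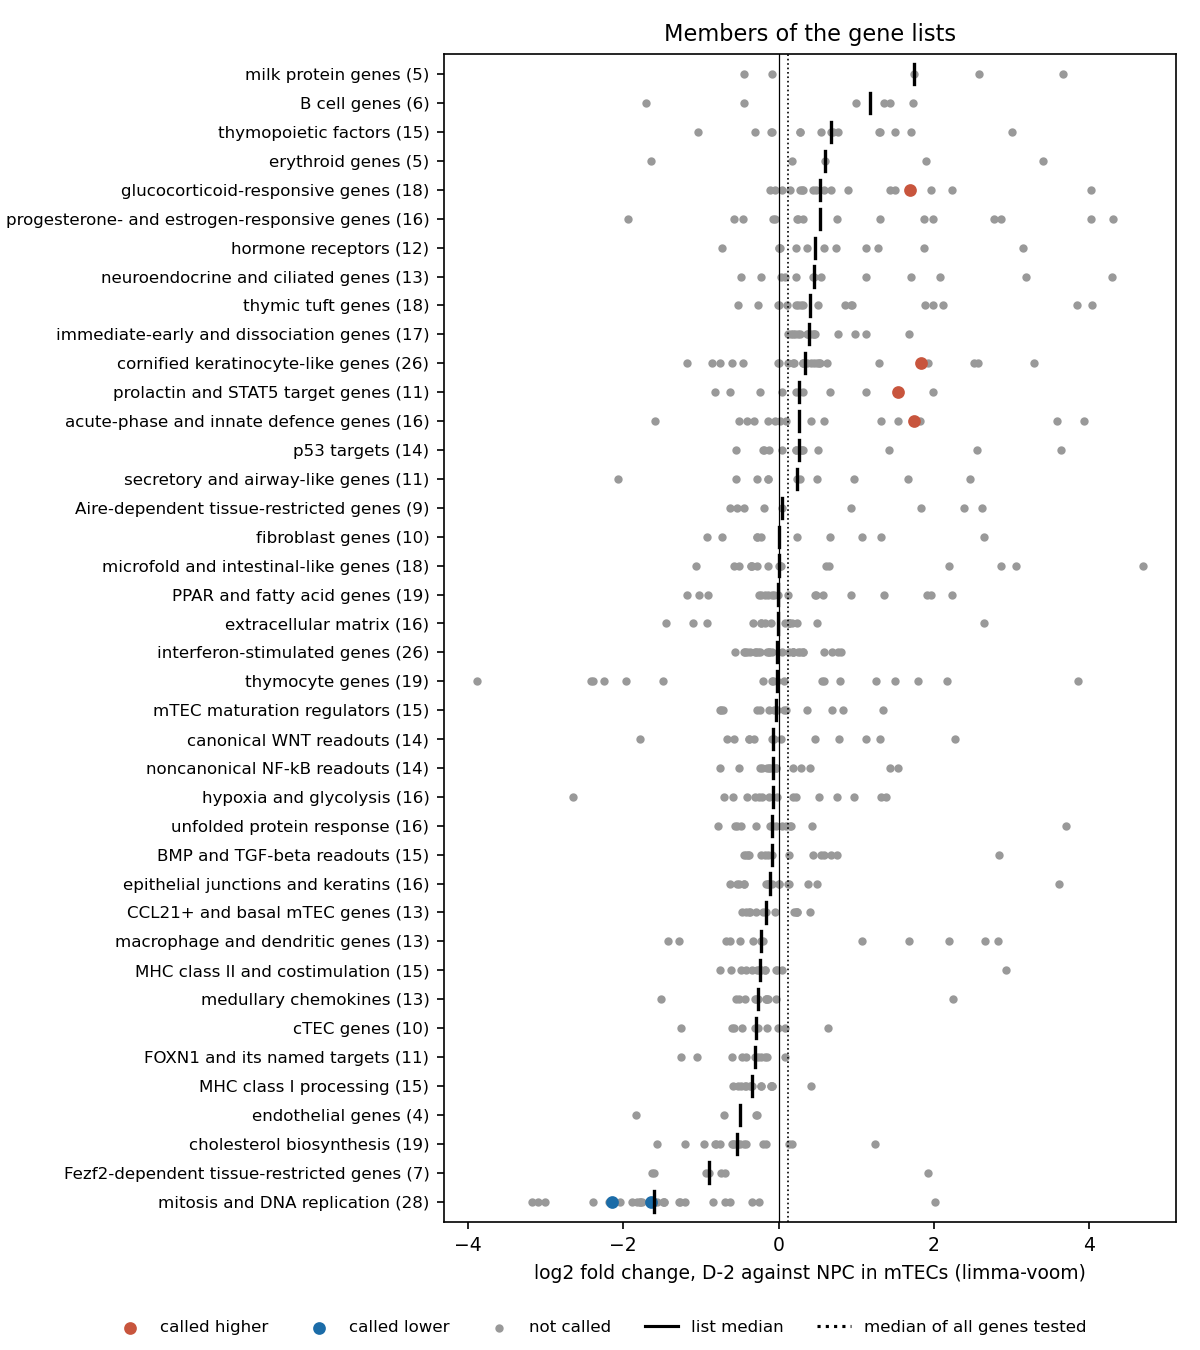
Log2 fold change of D-2 against NPC in mTECs (limma-voom) for the tested members of 40 gene lists, ordered by list median (black bar), with the number tested in brackets, called members in red (higher) or blue (lower) and the median of all genes as a dotted line. The mitosis and DNA replication list lies lowest, at a median of -1.61, and holds 2 called genes, while most lists hold none.

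The genes by which mTECs are defined were not called at D-2. Of 15 mTEC maturation regulators none was called (median -0.03, 6 above and 9 below 0). *Aire* stood at 95.2, 102 and 317 FPKM in NPC and 113, 149 and 50.1 FPKM at D-2, with wide overlap (log2 fold change -0.71, SE 0.47, adjusted p = 0.48). The value of *Aire* ran from -1.85 to -0.03 over the alternatives, being -0.03 without D-2 replicate 3, -0.25 without NPC replicate 3 and -0.95 with no filter, the setting with its lowest adjusted p (0.029). *Fezf2* (158, 99.5 and 141 against 145, 148 and 121 FPKM) had 0.09 (adjusted p = 0.85). *Foxn1*, the master regulator of thymic epithelium, had 0.08 (SE 0.35, adjusted p = 0.93), with overlap and a sign that depended on the setting. *Cd40*, a receptor that promotes mTEC growth, was at 72.7, 66.4 and 92.5 FPKM in NPC and 32.3, 41.9 and 38.3 FPKM at D-2. It was 1 of 3 members of this list with all D-2 samples below all NPC samples (8.16% of all genes). In 1 other member all D-2 samples were above (6.28% of all genes). The log2 fold change of *Cd40*, -0.76 (SE 0.29, adjusted p = 0.19), did not pass.

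None of 15 MHC class II and costimulation genes was called. Their median was -0.24, and 13 had a value below 0 (42.6% of all genes did). In 4 all D-2 samples were below all NPC samples (8.16% of all genes). The invariant chain gene *Cd74* (7841, 8145 and 6915 against 5449, 5806 and 6451 FPKM) had -0.34 (adjusted p = 0.17), and *H2-Aa*, a class II alpha chain gene, had -0.22 (adjusted p = 0.49). *Cd80* (21.4, 10.5 and 29.6 against 19.6, 37.5 and 10.3 FPKM) had -0.24 (SE 0.36, adjusted p = 0.78), a sign that also depended on the setting, and *Cd86* was at or below 7.24 FPKM in every sample. MHC class I processing genes gave a like picture (15 tested, none called, median -0.34, 14 below 0). In 5 of them every D-2 sample was below every NPC sample. *Psme2*, an immunoproteasome activator gene, was at 435, 406 and 411 FPKM in NPC and 273, 199 and 252 FPKM at D-2 (-0.59, adjusted p = 0.078). With *Malat1* or the share of TEC-biotype transcripts as a covariate, the class I median was -0.01 or -0.07.

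Among the CCL21+ and basal mTEC genes (13 tested, none called, median -0.16), *Ccl21a* overlapped at 13205, 15266 and 9069 FPKM in NPC and 8643, 7515 and 13748 FPKM at D-2 (-0.29, adjusted p = 0.54). Medullary chemokine genes (13, none called) had a median of -0.27 with 12 below 0, where 42.6% of all genes were. *Ccl19*, which draws thymocytes and dendritic cells to the medulla, stood at 167, 122 and 141 FPKM in NPC and 83, 120 and 90 FPKM at D-2 (-0.55, adjusted p = 0.32). FOXN1 and its named targets (11, none called) had a median of -0.30 with 10 below 0 (42.6% of all genes). In 5 of them all D-2 samples were below all NPC samples (8.16% of all genes). In that list *Prss16*, for a thymus-specific protease typical of cTECs, stood at 140.1, 174 and 138 FPKM in NPC and 81.5, 32.3 and 67.6 FPKM at D-2 (-1.25, adjusted p = 0.12). Thymopoietic factors (15, none called) had a median of 0.68, and *Il7* overlapped (-0.08, adjusted p = 0.92).

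Genes of the peripheral-like subsets held 1 call. *Spink5*, an inhibitor of epidermal proteases, stood at 17.9, 7.57 and 17.6 FPKM in NPC and 30.7, 55.7 and 46.6 FPKM at D-2 (log2 fold change 1.83, SE 0.31, adjusted p = 0.0038). It was the only call among 26 cornified keratinocyte-like genes (median 0.34), where 0.519% of all genes were called higher. Of the 26, 20 had a value above 0 (57.4% of all genes). All D-2 samples were above all NPC samples in 5 (6.28% of all genes) and below them in 1 (8.16%). The suprabasal keratin genes *Krt10* (20.4, 4.24 and 27.7 against 38.5, 64 and 36.7 FPKM, adjusted p = 0.057) and *Krt77* (1.30, adjusted p = 0.048) were not called. Of 18 thymic tuft genes none was called (median 0.41, 15 above 0), with *Trpm5*, the taste channel gene, at 0.93 (adjusted p = 0.13). In 6 tuft genes all D-2 samples were above all NPC samples, and in none below. Medians were 0.01 for microfold and intestinal-like genes (18), 0.46 for neuroendocrine and ciliated genes (13), 0.24 for secretory and airway-like genes (11), 0.05 for Aire-dependent genes (9) and -0.89 for Fezf2-dependent genes (7), with no call. Milk protein genes are of note in pregnancy because mTECs express them ectopically. 5 of 8 were tested and none was called. Their median of 1.74 rests on genes near 0 FPKM and turned to -0.70 without NPC replicate 2, -0.44 with DESeq2 and -0.46 with edgeR. The most abundant, beta-casein, *Csn2*, stood at 322, 226 and 438 FPKM in NPC and 194, 246 and 184 FPKM at D-2 (-0.44, adjusted p = 0.61).

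The remaining lists contained no call. Their medians were -0.02 for interferon-stimulated genes (26), -0.07 for noncanonical NF-kB readouts (14), -0.08 for the unfolded protein response (16), -0.07 for hypoxia and glycolysis (16), 0.26 for p53 targets (14), -0.07 for WNT readouts (14), -0.09 for BMP and TGF-beta readouts (15), -0.10 for epithelial junctions and keratins (16) and -0.01 for extracellular matrix (16). For the lists of other cells they were -0.02 (thymocyte, 19), 1.18 (B cell, 6), -0.22 (macrophage and dendritic, 13), 0.01 (fibroblast, 10), -0.49 (endothelial, 4), 0.60 (erythroid, 5) and -0.29 (cTEC, 10). Several of these rest on genes of low level and turned sign between settings, from -0.91 to 0.84 for thymocyte genes, -1.01 to 1.61 for B cell genes and -0.84 to 2.57 for erythroid genes. Immediate-early and dissociation genes, which respond to enzymatic digestion, had a median of 0.39 with all 17 above 0 (57.4% of all genes), but in none were the groups apart. *Fos*, for example, stood at 1916, 1576 and 2483 FPKM in NPC and 2575, 1939 and 2277 FPKM at D-2.

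The levels of the called genes at D-2 were set beside the 22 mTEC samples taken from birth onwards, which belong to the fit but not to the contrast. The same D-2 values had chosen these genes, so the comparison is a description. Of the 92 genes called higher, 28 (30.4%) had all D-2 samples above all 22 postpartum samples, against 0.485% of all genes tested. Of the 9 called lower, only *Acta2* (11.1%) had all D-2 samples below them, against 0.152% of all genes. Mean *Acta2* was 439 FPKM in NPC, 118 at D-2, 205 on the day of birth, 291 at D3, 352 at D6 and 401 at D12. *Tagln* ran 664, 259, 305, 491, 574 and 659 FPKM, and *Mcm3* ran 21, 6.78, 8.24, 12.2, 17.9 and 19.2 FPKM over the same points. In these 3 genes the mean was closer to NPC at each of these later points, and nearest to it at D12.

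The genes called higher had been chosen for high values at D-2, and their later means are given on the same terms. Mean *Sox4* was 185 FPKM in NPC, 728 at D-2 and 417 at birth, and then 236 (D3), 287 (D6) and 246 (D12). *Klf9* ran 39.5, 132, 62.1, 45.4, 48 and 44.4 FPKM over the same points, and *Serpina3n* ran 36.6, 121, 49.5, 19.7, 18.4 and 34.9 FPKM. *Hsp90aa1* was at 537 FPKM in NPC, 1663 at D-2 and 665 at D0. *Malat1* had means of 1991 FPKM at D-2, 815 at D0 and 367 at D3, and its part in these courses was not tested. *Aldh1a3* differed, at 27.8 FPKM in NPC, 10.5 at D-2, 9.39 at D0, 8.7 at D6 and 15.3 at D12. These courses are given as levels, with no test of the postpartum points.

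**Figure D4:**
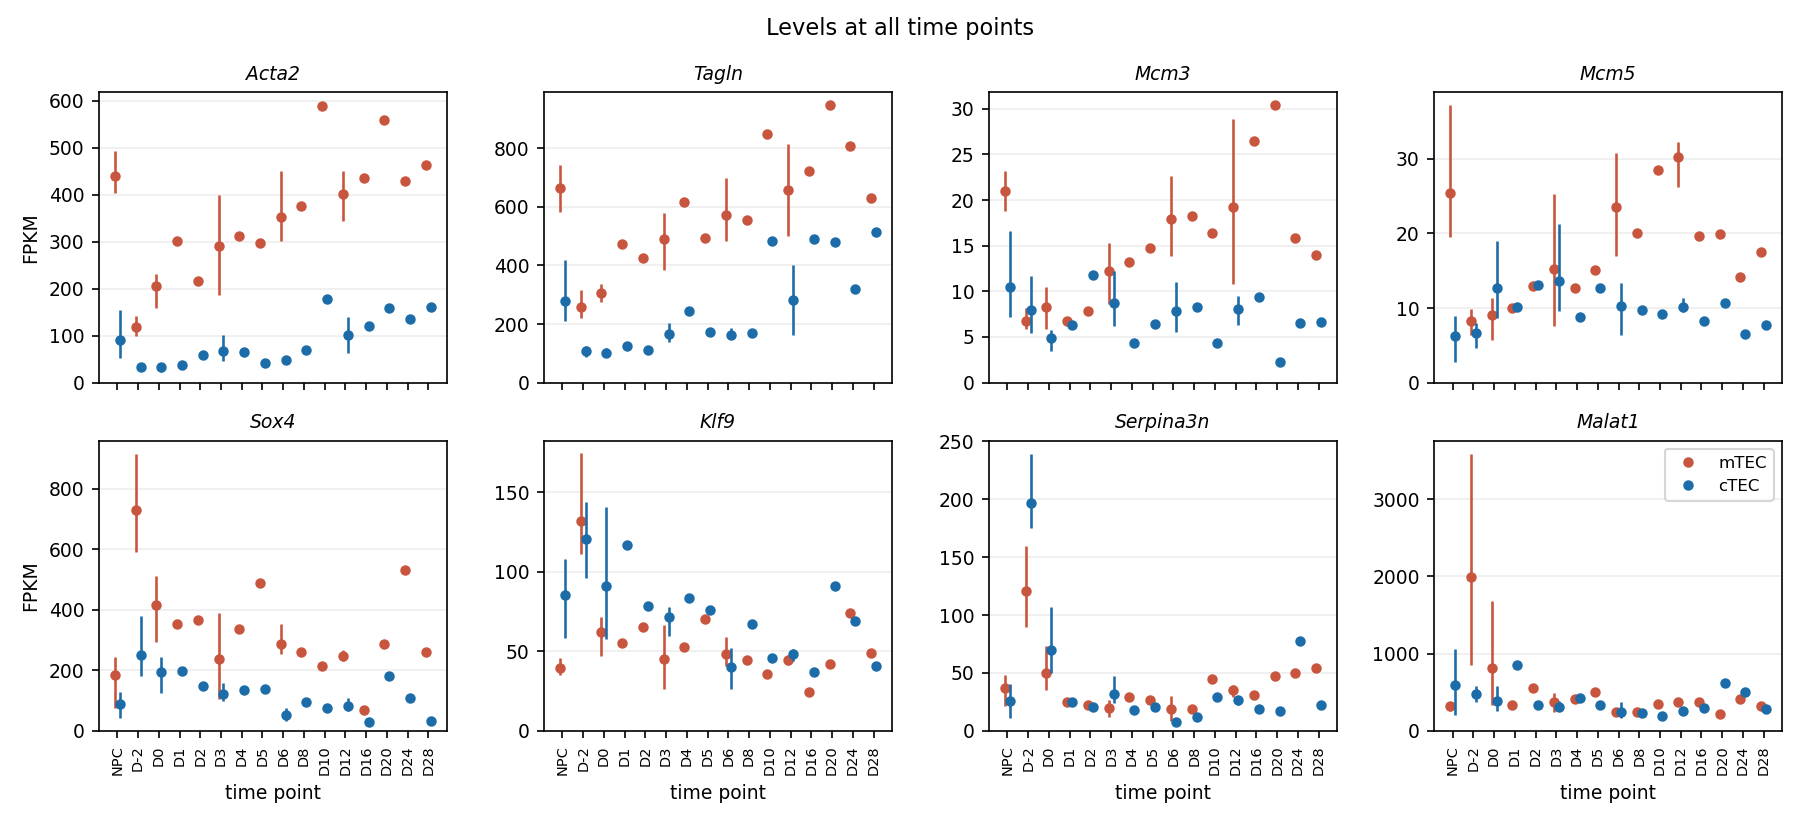
FPKM of 8 genes at NPC, D-2 and each postpartum time point in mTECs (red) and cTECs (blue), as mean (point) and lowest to highest sample (line, where a time point has 3 samples). In mTECs *Acta2*, *Tagln*, *Mcm3* and *Mcm5* have low means at D-2 and at birth, while *Sox4* and *Klf9* have means of 728 and 132 FPKM at D-2 against 185 and 39.5 FPKM in NPC.

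The same contrast in cTECs, D-2 (3 samples) against NPC (3 samples), was used to ask where mTECs differed. In a fit over both cell types (56 samples, 18394 genes), no gene had a change that differed between mTECs and cTECs at 2-fold and an adjusted p of 0.01 by limma-voom (0%), with 1480 genes at an unadjusted p under 0.05. edgeR found 0 (793 unadjusted) and DESeq2 25, and without mTEC NPC replicate 3 limma-voom found 26. Among the genes with the smallest p for a positive difference, mTEC minus cTEC, were *Ubn1*, for a subunit of a histone chaperone (1.18, adjusted p = 0.078), *Nav2*, a gene of cell migration (1.54, adjusted p = 0.079), *Ankrd17* (1.06, adjusted p = 0.16) and *Ppp1r12a*, for a myosin phosphatase subunit (0.99, adjusted p = 0.17). The log2 fold changes in mTECs and in cTECs were 0.71 and -0.43 for *Ubn1*, 0.66 and -0.86 for *Nav2*, 1.02 and 0.00 for *Ankrd17*, and 0.72 and -0.24 for *Ppp1r12a*, so that for all but *Ankrd17* the values lie on either side of 0. Under the same conditions, the negative differences with the smallest p were those of *Aldh1a3* (-2.21, adjusted p = 0.22), which was at 22.5 ± 7.9 and 28.2 ± 15 FPKM in cTECs, and the tetraspanin gene *Cd82* (-0.81, adjusted p = 0.22). The ribosomal entries *Rpl9* and *Rps23-ps1* (both -0.88) share near-identical copies in the genome and are uncertain. *Lce3d*, a late cornified envelope gene, was at 5.69, 11 and 0.23 FPKM in mTECs of NPC and was listed at 0 in every D-2 mTEC sample and in these cTECs.

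In their own fit, cTECs had 15 calls among 15845 genes (0.0947%), 5 higher and 10 lower. *Serpina3n* was the single gene called in both cell types and had the larger value in cTECs, from 25.4 ± 14.8 to 197 ± 36.2 FPKM (log2 fold change 3.34, adjusted p = 0.0013). Of the genes called higher in mTECs, 89 were tested in cTECs and 80 had a value above 0 there, with a median of 0.37, where 53.7% of all cTEC genes were above 0 with a median of 0.03. Of the 9 called lower, 7 had a value below 0 in cTECs (46.3% of all cTEC genes), with a median of -0.66. Their mTEC values had chosen these genes and are not set beside the cTEC medians. *Tagln* had -1.32 (adjusted p = 0.045), *Myl9* -1.53 (adjusted p = 0.11), *Acta2* -1.14 (adjusted p = 0.40), *Igfbp5* 1.74 (adjusted p = 0.015) and *Sox4* 1.58 (adjusted p = 0.14) in cTECs. None of these 5 genes passed the threshold there, and the absence of a call does not show that the cell types respond alike or apart.

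**Figure D5:**
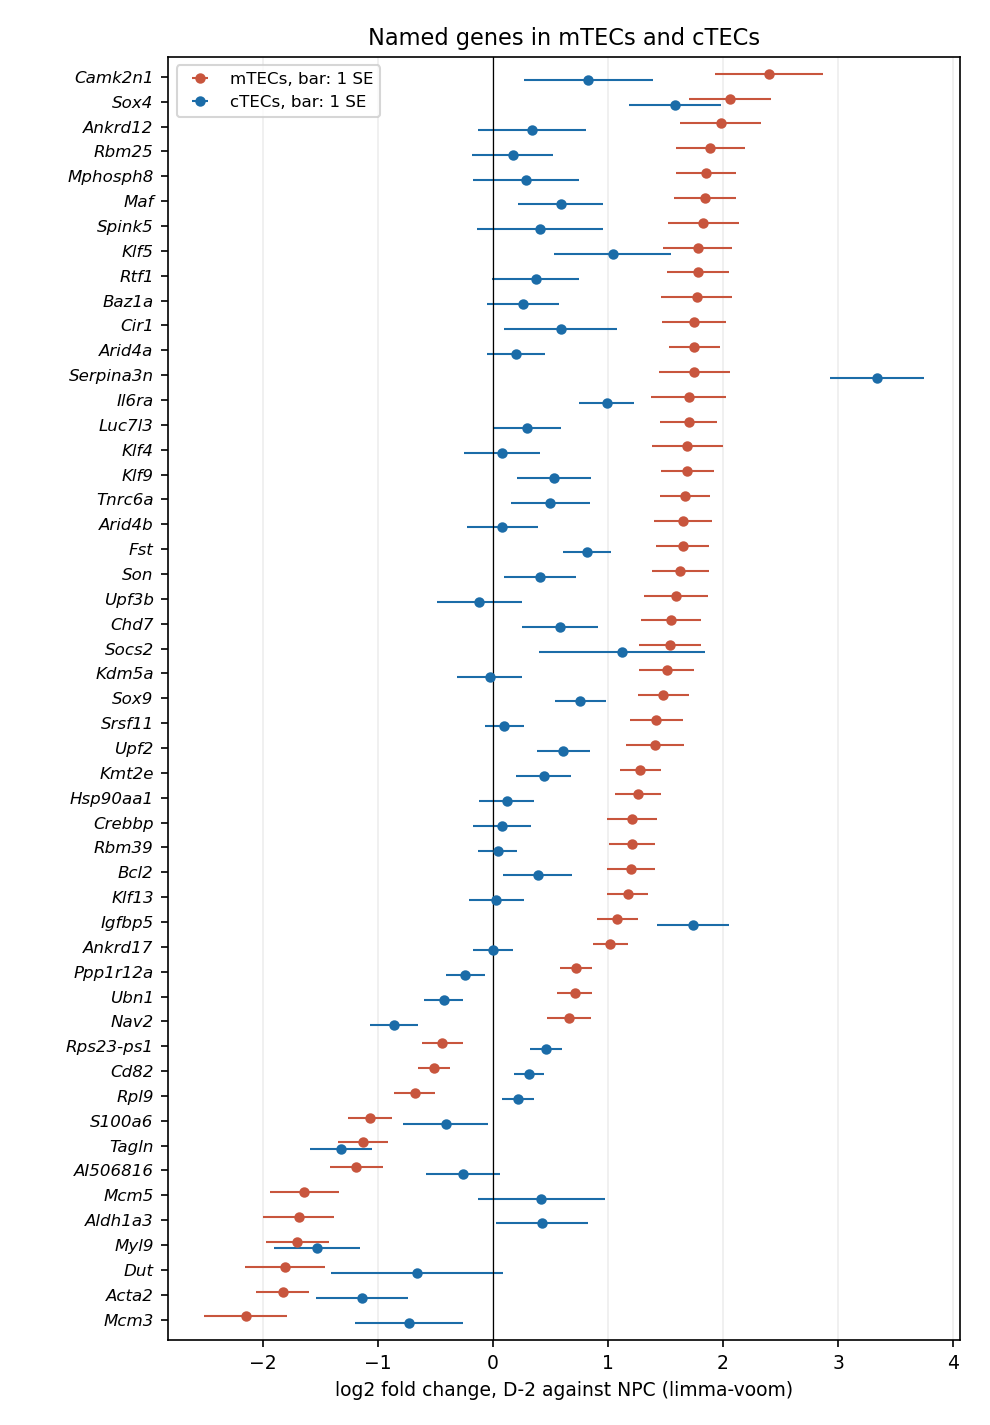
Log2 fold change of D-2 against NPC in mTECs (red) and cTECs (blue) for the called genes named in the text and those named for a difference between cell types, each with 1 SE on either side (limma-voom, separate fits). *Serpina3n* has the larger value in cTECs (3.34 against 1.75), while *Aldh1a3* has 0.43 in cTECs and -1.69 in mTECs.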

How the data were processed

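RNA was extracted with Trizol from sorted mTECs and cTECs, and stranded poly(A) libraries (KAPA) were sequenced on an Illumina NextSeq instrument. According to the study's methods and the submitters' processing notes, the authors used bcl2fastq 2.20, Trimmomatic 0.35, STAR 2.5.1b and RSEM 1.2.28 on GRCm38, and deposited, per sample, expected counts, FPKM and gene length from RSEM. The deposited expected counts (whole in 92.3% to 95.8% of values of the 6 samples) were rounded and tested here with limma-voom (limma 3.58.1, edgeR 4.0.16 for TMM, R 4.3.3) with 1 mean per time point over 28 mTEC samples in 16 time points, 10 of them with 1 sample, which leaves 12 residual degrees of freedom. The authors' FPKM gives the levels. All p-values were adjusted by Benjamini-Hochberg over all genes tested. The difference between cell types was fitted over 56 samples as separate, although mTEC and cTEC samples share title numbers and may come from the same mice, which is not stated. Alternatives included DESeq2 1.42.0, edgeR's quasi-likelihood test, limma-trend, other filters and scaling, and leaving out each sample. The fits were tested on simulated counts, where each recovered only a minority of the changed genes, so a gene that was not called is not shown to be unchanged. Symbols and coordinates came from GENCODE M21 (50376 of 50600 identifiers matched). Genes were named by rule (the 15 largest changes in each direction among calls with a mean of at least 5 FPKM in the higher group and groups apart, filled by p, the called or most abundant list members, and 6 genes of interest) unless said to be chosen after their values were seen. Genes for the difference from cTECs were named by the smallest p of that difference, under the same conditions of level and groups apart in mTECs. Some genes are not reported here. The members and the 40 lists were chosen with earlier results of these data known. NPC and D-2 samples with the same replicate number did not deviate together (Pearson r of -0.004, 0.000 and -0.082 across genes).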

Additional observations from a re-analysis of the deposited data

How the results depend on the processing

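With an adjusted p of 0.05 the number of genes called in mTECs was 306 at 2-fold and 414 at any fold. It was 201 with no filter on low values (176 higher, 25 lower), 36 with sample quality weights, 20 with edgeR, 4 with limma-trend at either pseudocount (0.1 or 0.5), and 0 with the 6 samples alone, with *Malat1* or with the transcript-class share as a covariate, the last pair chosen after seeing the data. Leaving out 1 sample gave 2 (without NPC replicate 2) to 273 (without NPC replicate 3). DESeq2 (134), median-of-ratios scaling (99) and a filter over the 6 samples (100) stayed within 1.5 times. With the replicate number as a block the count was 76 (74 higher, 2 lower), of which 65 were among the 101, although the numbers do not pair the samples. The count of genes that differ between mTECs and cTECs, 0 in the report, was 25 with DESeq2, 3 with no filter, 1 with the title number as a block across cell types (chosen after seeing the data), 0 with the replicate block, and 0 to 26 on leaving out 1 sample (26 without mTEC NPC replicate 3). Of 46 called genes followed through the settings, 42 were called by DESeq2, 42 with no filter, 31 with the replicate block and 11 by edgeR. Only 6 were called without D-2 replicate 1, 3 with limma-trend at either pseudocount and 2 without NPC replicate 2. None was called with the 6 samples alone or with either covariate. All 46 kept their direction, but the settings reuse the samples that chose these genes. Of the 40 list medians, 24 were below 0 in some settings and above 0 in others. The causes were not tested.

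Genes that were not called changed sign in some settings. *Cd80* was at 0.20 with DESeq2, 0.17 with edgeR, 0.06 with limma-trend, and between -0.78 and 0.78 on leaving out 1 sample (0.07 without NPC replicate 1, 0.78 without D-2 replicate 3). *Foxn1* was at -0.43 with no filter, -0.02 with the transcript-class covariate, and -0.22 (without NPC replicate 3) to 0.37 on leaving out 1 sample. *Neat1* was at -0.43 with DESeq2, -0.46 with edgeR, -0.35 with limma-trend, -0.16 with *Malat1*, -0.72 with the transcript-class covariate, -0.08 with the replicate block, and -0.20 (without NPC replicate 1) to 0.96 (without NPC replicate 3) on leaving out 1 sample. *Srf* was at -0.13 with DESeq2, -0.14 with edgeR, -0.15 with limma-trend, -0.12 with quality weights, 0.00 with the replicate block, and -0.19 (without D-2 replicate 3) to 0.23 on leaving out 1 sample. With *Malat1* as a covariate *Actb* was at 0.12 and *Rps23-ps1* at 0.12, with no filter *Actn1* was at 0.00, and *Cnn1* ranged from -1.38 (without NPC replicate 2) to 3.50 on leaving out 1 sample.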
